A study of Xenopus laevis with 12 samples.

Results

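The 214 gene IDs described here were higher in every library with a barhl1 morpholino than in every control library of rhombomere 1 from Xenopus laevis tadpoles. They were chosen by their measured levels in all 12 libraries, out of 44478 gene IDs in the files, of which 23672 had a mean of at least 1 CPM (the count scaled to a common library total). A member had its lowest CPM in the 8 morpholino libraries above its highest CPM in the 4 Control libraries, and a morpholino mean under 4 times the Control mean. The difference between morpholino and Control libraries is therefore given as a description and not as a finding. The files do not pair the IDs with gene names, and the RefSeq gene table matched 0 of the 214, so no member has a name or a role here and 2 IDs are printed.

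A morpholino is a synthetic antisense oligomer that pairs with an RNA and keeps it from being translated or spliced. Of the 3 groups, with 4 libraries each, 1 received MOBarHl1_1 and is called KD_1, 1 received MOBarHl1_2 and is called KD_2, and 1 received the control morpholino and is called Control. All 12 libraries carry the genotype label Xenla9.2, and all came from injected embryos, Control included. The sample labels put the tadpoles at stage 41, with 4 samples in a group, whereas the series' design text gives stage 42 and 3 replicates per condition. That text also states injection into the dorsal blastomeres at the 4-cell stage and a pool of 3 dissected rhombomeres per replicate. No label ties a sample to a clutch or an animal, so p-values measure only the spread between these samples, which may be technical. The level of barhl1 RNA could not be read without gene names, nor could markers of the labelled cerebellar primordium. No library's label could therefore be checked against the level of barhl1. Control replicate 1 stands apart from the other Control libraries on many IDs, and whether it belongs to the group on its label could not be checked, which bears on each Control mean and on the choice of members. The rule gave 214 IDs with it and 1534 without it.

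Rhombomere 1 is the hindbrain segment that forms the cerebellum. At its dorsal edge lies the upper rhombic lip, where progenitors that express the transcription factor Atoh1 give rise to glutamatergic cerebellar neurons, among them granule cells. Barhl1 is a homeodomain transcription factor downstream of Atoh1, described by the submitters as an inhibitor of T-cell factors, which are the DNA-binding proteins at the end of the Wnt pathway. In dissected tissue, more cells of a type and more RNA per cell cannot be told apart.

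Most members differed from the Control libraries by a small margin. The ratio of the morpholino mean to the Control mean ran from 1.06 to 3.77 over the 214 members, with a median of 1.22 and quartiles of 1.16 and 1.34. Over all 23672 IDs with a mean of at least 1 CPM the median ratio was 0.984. The ratio was under 1.2 in 84 members, 1.2 to 1.5 in 94, 1.5 to 2 in 15 and 2 or more in 21. Taken by morpholino, the median ratio to Control was 1.21 for KD_1 and 1.23 for KD_2, with the same Control libraries in both.

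The mean CPM of the members over the 12 libraries ran from 1.15 to 167 with a median of 21.2, against a median of 16.5 and a highest value of 9757 over the 23672 IDs. CPM is not corrected for gene length, so the order of members by CPM is not an order of transcript number. Between 1 and 5 CPM there were 23 members, which are 0.451% of the IDs at that level. The share was 0.983% between 5 and 20 CPM with 79 members, 1.32% between 20 and 50 CPM with 78 members, and 0.738% above 50 CPM with 34 members. The median ratio was 1.74 in the lowest of these levels and 1.26, 1.18 and 1.17 in the next ones. At low counts, where counting error is larger relative to the level, separation of all libraries may take a larger ratio. Whether it did so here was not tested. Nothing is therefore read from the change of share or ratio with level.

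**Figure D1:**
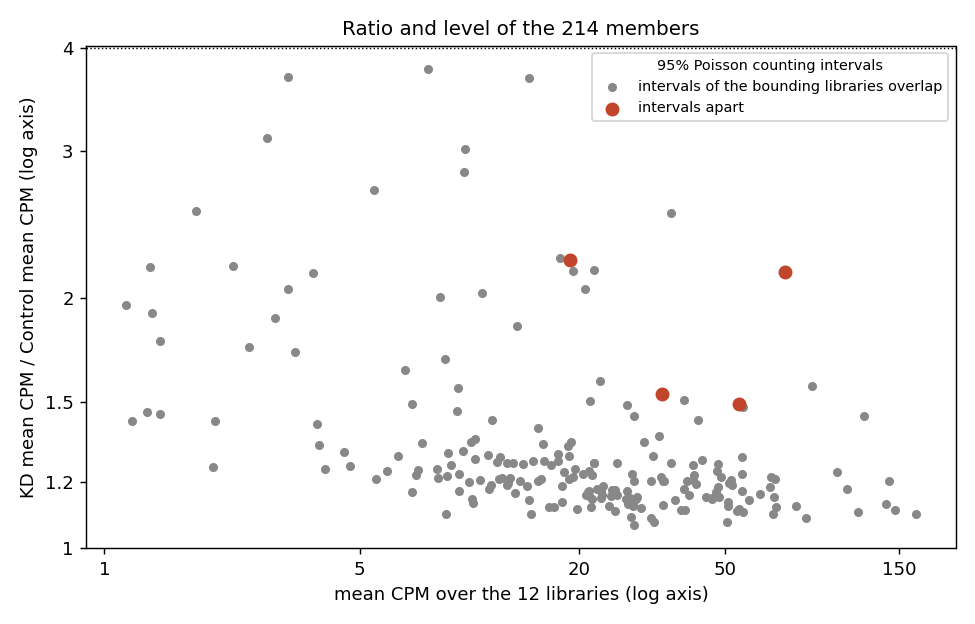
Ratio of the KD mean to the Control mean against the mean CPM over the 12 libraries for the 214 members, both on log axes. Each point is a member, the dotted line is the upper limit of the rule at 4, and the 4 red points are the members whose 95% counting intervals in the lowest KD and the highest Control library do not overlap. How many of all IDs have such intervals apart was not counted. Ratios of 2 or more were held by 21 members, and 84 lay under 1.2.

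The gap between the groups was narrow in most members. The lowest morpholino CPM over the highest Control CPM had a median of 1.02 and a highest value of 1.38. It was under 1.2 in 206 members and 1.2 or more in 8. Setting the exact 95% Poisson interval of the lowest morpholino library against that of the highest Control library, the intervals were apart in 4 members and overlapped in 210. These intervals cover counting error only, and the same count was not taken over all IDs. In 1 of the 4 the intervals were barely apart. The interval of its lowest morpholino library began at 50.9334 CPM, and that of its highest Control library ended at 50.9278 CPM. At the edges of the rule, a member had 27.6265 CPM in its lowest morpholino library and 27.6224 CPM in its highest Control library, while an ID just outside had 17.5262 and 17.5271 CPM. At the lower limit of level, the lowest member had a mean of 1.15 CPM and the nearest ID outside one of 0.992 CPM. At the upper limit of the ratio, the highest member had 3.77 and the nearest ID outside 4.21.

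Separation of all libraries in either direction was uncommon among the 23672 IDs. In 231 of them, 0.976%, every morpholino library lay above every Control library, and 17 of these were left out by the limit of 4 on the ratio. In 192, 0.811%, every morpholino library lay below every Control library. Nothing is read from these shares about the members, which were chosen by this same separation.

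The member with the widest gap was XBXL10_1g18974, which was also the member with the lowest mean CPM. It had 1.15, 1.29, 1.28 and 1.28 CPM in KD_1 replicates 1 to 4 and 1.38, 1.21, 1.74 and 1.63 CPM in KD_2 replicates 1 to 4, against 0.773, 0.615, 0.837 and 0.564 CPM in Control replicates 1 to 4. Its means were 1.25 ± 0.0660 CPM in KD_1, 1.49 ± 0.239 CPM in KD_2 and 0.697 ± 0.129 CPM in Control (SD, n = 4 each). KD_2 replicates 3 and 4 stood highest, and KD_2 replicate 2 lay within the range of KD_1. Neither overlapped Control, which the rule fixes. These levels rest on 15 to 51 counts per library, and the interval of the lowest morpholino library began at 0.782 CPM, below the upper end of the highest Control library at 1.25 CPM.

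The member with the highest mean CPM was XBXL10_1g18876. It had 183, 163, 162 and 166 CPM in KD_1 replicates 1 to 4 and 177, 162, 193 and 170 CPM in KD_2 replicates 1 to 4, against 160, 161, 151 and 156 CPM in Control replicates 1 to 4. The lowest of the morpholino libraries, KD_2 replicate 2, was at 1.01 times Control replicate 2, the highest of the Control libraries. Its ratio of means was 1.10 at 3721 to 5678 counts per library.

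The member with the highest ratio was unlike both. Its CPM was 14.7, 10.95, 9.77 and 7.57 in KD_1 replicates 1 to 4 and 10.3, 12.7, 8.14 and 7.61 in KD_2 replicates 1 to 4, against 6.92, 1.15, 0.174 and 2.60 in Control replicates 1 to 4. Control replicate 1 stood nearest to the morpholino libraries. The Control libraries of this member spread widely, at 2.71 ± 2.98 CPM (SD, n = 4), and its lowest count was 5. The member with the lowest ratio, 1.06, had 28.7 ± 1.02 CPM in the morpholino libraries (SD, n = 8) and 27.0 ± 0.663 CPM in Control (SD, n = 4).

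The 4 members whose counting intervals were apart had ratios of 1.49 to 2.22 and mean levels of 18.9 to 72.9 CPM. The one with the widest gap had 26.4, 22.2, 23.3 and 19.6 CPM in KD_1 replicates 1 to 4 and 20.9, 31.4, 21.0 and 20.1 CPM in KD_2 replicates 1 to 4, against 14.7, 7.14, 7.71 and 12.04 CPM in Control replicates 1 to 4. KD_2 replicate 2 was the highest library and Control replicates 2 and 3 the lowest. The most abundant of the 4 had 88.3 ± 18.7 CPM in KD_1, 89.2 ± 22.8 CPM in KD_2 and 41.3 ± 15.1 CPM in Control (SD, n = 4 each). Its Control replicate 1 was at 63.6 CPM and Control replicates 2 to 4 at 31.4 to 37.3 CPM.

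**Figure D2:**
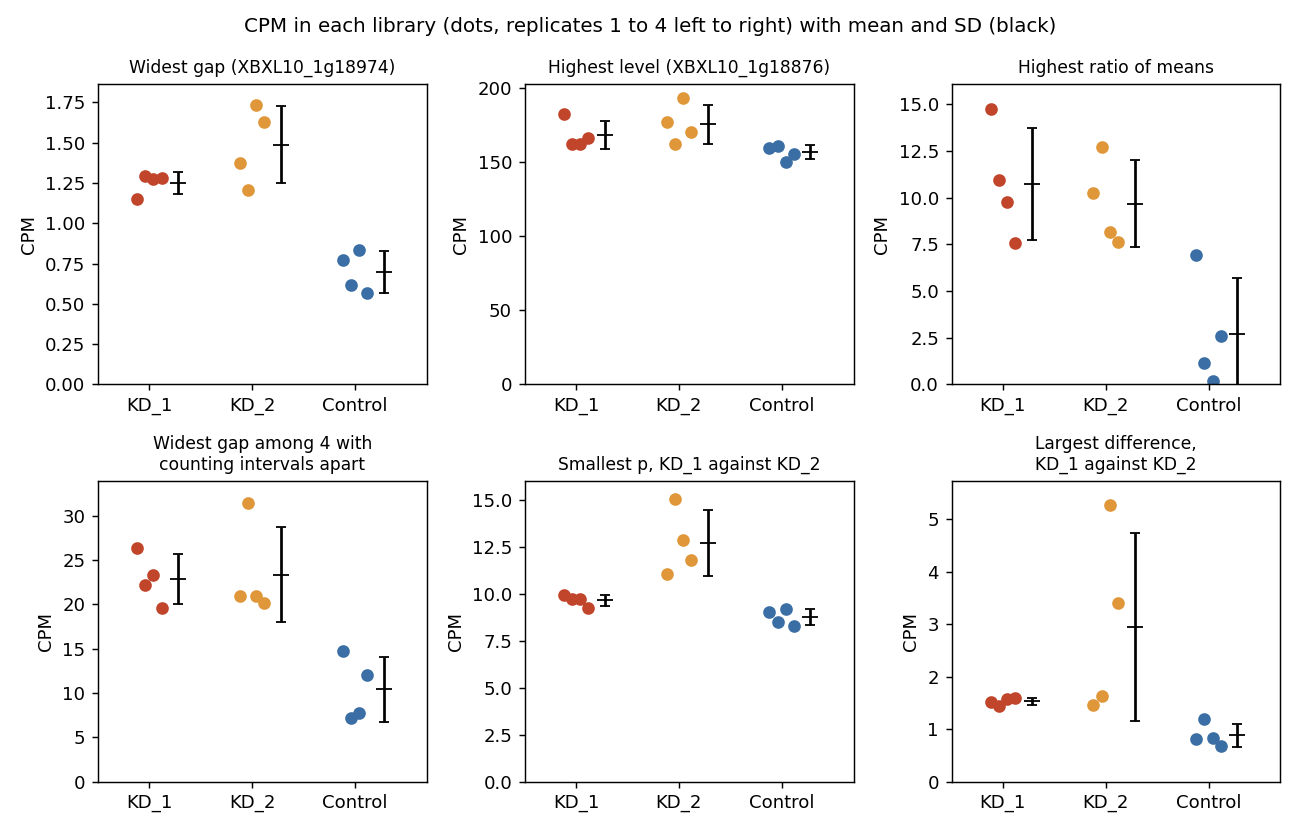
CPM of 6 members in each library, with KD_1 and KD_2 to the left of Control and replicates 1 to 4 from left to right within a group. Dots are libraries and the black marks are the mean and SD of 4 libraries. Axes start at 0, where the lower SD bar of Control is cut in the panel of the highest ratio, and in the member with the highest ratio Control replicate 1 is at 6.92 CPM with the other Control libraries at 0.174 to 2.60 CPM.

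Summed over the 214 members, the level was 6541 ± 324 CPM in KD_1, 6520 ± 286 CPM in KD_2 and 5279 ± 271 CPM in Control (SD, n = 4 each), so the members took 0.627% to 0.701% of the counts in the morpholino libraries and 0.504% to 0.566% in the Control libraries. By library the sum was 7012, 6439, 6274 and 6439 CPM in KD_1 replicates 1 to 4, 6317, 6412, 6945 and 6408 CPM in KD_2 replicates 1 to 4, and 5656, 5288, 5039 and 5134 CPM in Control replicates 1 to 4. KD_1 replicate 1 and KD_2 replicate 3 were highest, and Control replicate 1 was the highest of its group. The median member was at a log2 CPM of 0.37 above its Control mean in KD_2 replicate 3 and 0.22 above it in KD_1 replicate 3, the highest and lowest of the morpholino libraries. In Control replicates 1 to 4 the same median was 0.08, 0.01, -0.06 and -0.04.

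**Figure D3:**
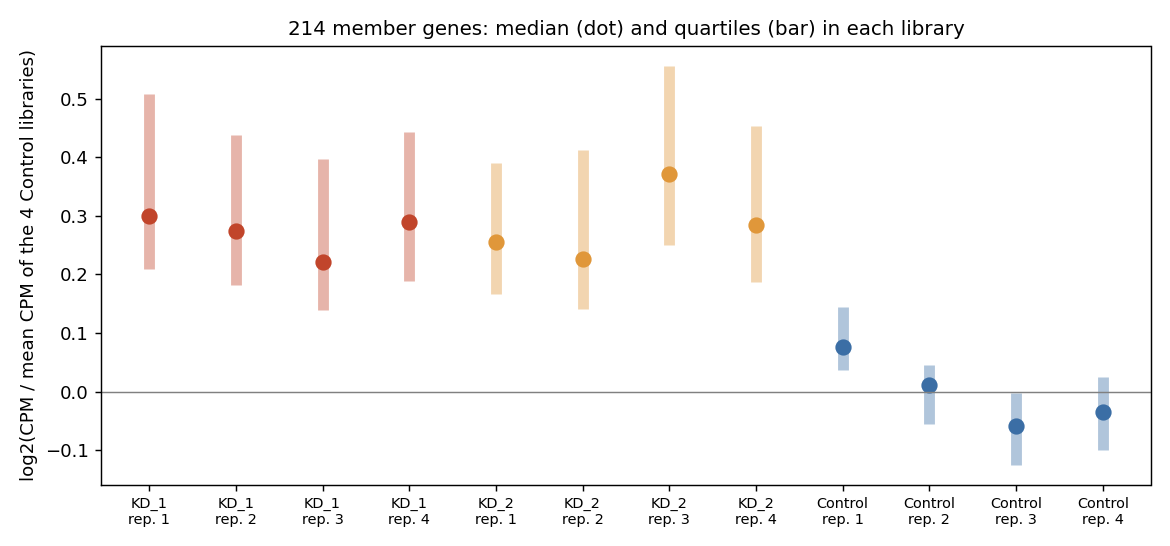
Level of the 214 members in each of the 12 libraries, as log2 of the CPM over the mean CPM of the 4 Control libraries. Dots are medians over members and bars run from the lower to the upper quartile, with KD_1 and KD_2 to the left of Control. The rule sets the direction of the difference, and the medians run from 0.22 to 0.37 in the morpholino libraries and from -0.06 to 0.08 in the Control libraries.

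A single Control library bounded most members. Control replicate 1 was the highest of the 4 Control libraries in 142 of the 214 members, 66.4%, whereas it was so in 32.2% of all 23672 IDs. Control replicates 2, 3 and 4 were highest in 32, 19 and 21 members. On the morpholino side KD_1 replicate 3 was the lowest library in 57 members, 26.6%, against 14.9% of all IDs. KD_2 replicate 2 was lowest in 40, 18.7% against 8.77% of all IDs, and KD_2 replicate 1 in 33, 15.4% against 8.26%. The highest morpholino library was KD_2 replicate 3 in 78 members, 36.4%, against 15.8% of all IDs. The members were chosen by these same values, and all IDs include those that differ in either direction. Nothing is therefore read from these shares.

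Control replicate 1 stood furthest above the other Control libraries in the members with the largest ratios. The rule holds it below every morpholino library, which leaves it little room where the ratio is small. Nothing is therefore read from this trend over the classes. Of the 21 members with a ratio of 2 or more, Control replicate 1 was the highest Control library in 20, and in 15 it was over 1.5 times the mean of Control replicates 2 to 4. Its median in these 21 members was 1.66 times that mean, while the morpholino mean was 2.62 times it. In the 84 members with a ratio under 1.2, Control replicate 1 was at a median of 1.05 times that mean and the morpholino libraries at 1.15 times it. The highest morpholino library also differed between these classes. It was KD_2 replicate 2 in 11 and KD_1 replicate 1 in 5 of the 21 members with the largest ratios, and KD_2 replicate 3 in 32 and KD_1 replicate 1 in 14 of the 84 with the smallest. The cause of these differences between libraries was not tested.

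Because all 12 libraries chose the members, each library was also left out of the rule in turn, which gives a value of the same measure in a library that did not take part. Without Control replicate 1 the rule found 1534 IDs, 6.48% of the 23686 with a mean of at least 1 CPM, and the reverse separation found 1836, 7.75%. The rule kept its limit of 4 on the ratio, while the reverse separation had no limit on the ratio, so these shares are not like for like. Leaving out any 1 of the other libraries gave 238 to 433 IDs, the most without KD_1 replicate 3. A smaller set of libraries to separate gives more IDs by construction. The 1534 hold 209 of the members, on which the rule fixes Control replicate 1 below all morpholino libraries. On the 1534 IDs, Control replicate 1 itself lay below all morpholino libraries in 210 and above all other Control libraries in 95.2%. On a scale that puts the other Control libraries' mean at 0 and the morpholino mean at 1, its median position was 0.814. The other Control libraries, each left out of its own choice, had median positions of 0.163, -0.137 and -0.0471 for replicates 2, 3 and 4.

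Among the morpholino libraries, KD_1 replicate 3 was the one least on its own side when left out. It lay above all Control libraries in 214 of the 433 IDs chosen without it, 49.4%, at a median position of 0.370. KD_2 replicates 1, 2 and 4 had median positions of 0.733, 0.613 and 0.715, with 82.6%, 72.3% and 75.4% of IDs above all Control libraries. KD_1 replicates 1, 2 and 4 were at 1.09, 0.857 and 0.876, with 87.4%, 89.9% and 84.3%. KD_2 replicate 3 was at 1.24, with 87.4%. The IDs with a left-out library on its own side are nearly all members. These shares therefore mainly restate how many IDs were chosen without that library. The left-out Control replicate 1 had a higher median position than 4 of the 8 morpholino libraries, though each position comes from its own set of IDs.

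**Figure D4:**
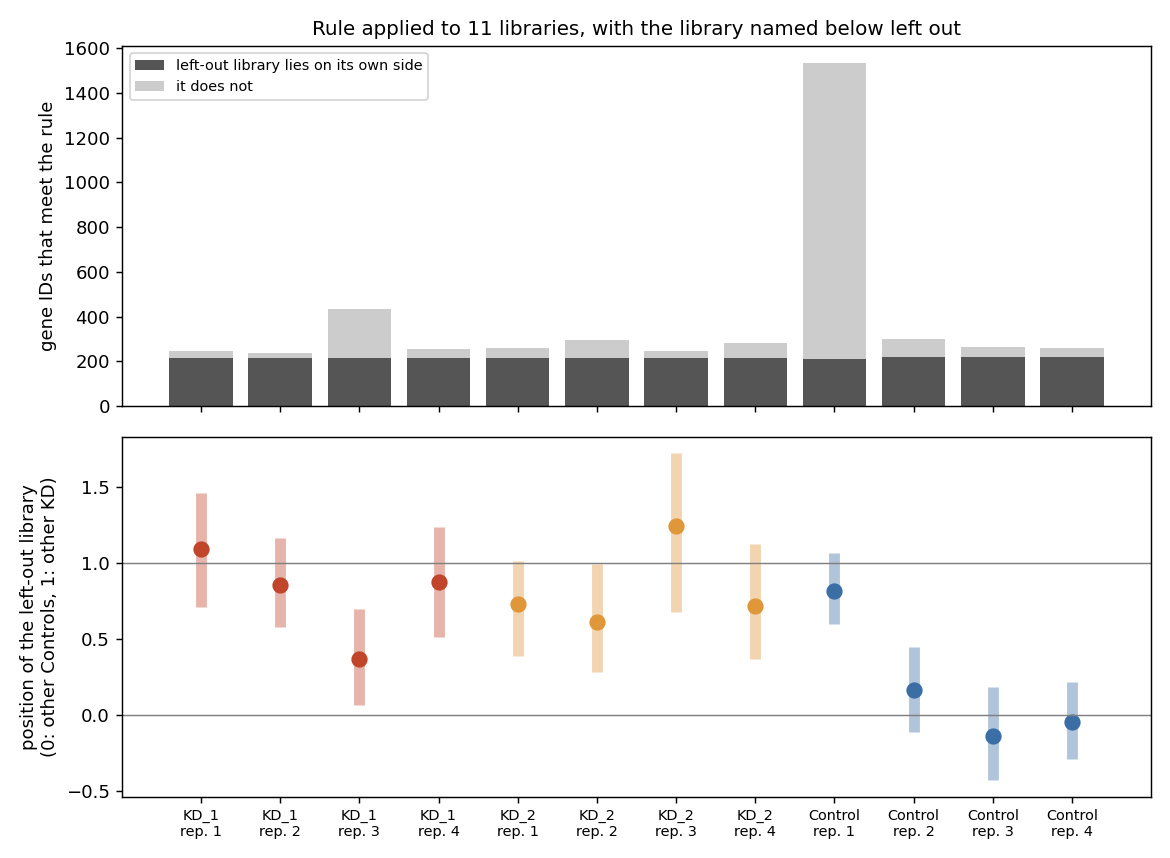
The rule applied to 11 libraries with the named library left out. The upper panel counts the IDs that meet the rule, dark where the left-out library lies on its own side of all libraries of the other kind, and the lower panel gives the position of that library on those IDs as median (dot) and quartiles (bar), with 0 at the other Control and 1 at the other morpholino libraries. The dark parts are nearly all members. Control replicate 1 gives 1534 IDs and a median position of 0.814, and the other Control libraries have medians of -0.137 to 0.163.

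Whether the members separated KD_1 from KD_2 is a question the rule did not use, apart from its demand that each library of both groups lie above the Control libraries. Of the 214 members, 0 passed an adjusted p of 0.05 in edgeR's quasi-likelihood test of KD_1 against KD_2, as did 0 of all 26712 IDs tested, or 0.00%. The smallest adjusted p among members was 0.649. At an unadjusted p under 0.05 there were 8 members, 3.74%, against 7.35% of all IDs. Of these 2 were higher in KD_1, against 3.81% of all IDs, and 6 were lower in KD_1, against 3.54% of all IDs. DESeq2 and limma-voom called 0 members and had 10 and 6 at that unadjusted p. Over all 26712 IDs, DESeq2 called 3 higher and 8 lower in KD_1, and limma-voom called 0. At that unadjusted p, DESeq2 had 958 of all IDs higher and 1098 lower in KD_1, and limma-voom 1216 and 860. A p over the threshold does not show that both morpholinos acted alike. The rule favours members with little spread between the morpholino libraries, so nothing is read from the lower share among members.

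The differences between KD_1 and KD_2 were small in most members. The fitted log2 difference of KD_1 over KD_2 lay within 0.1 of 0 in 153 members and within 0.25 in 206, with a median of -0.02 and a median SE of 0.09. It was above 0 in 87 of the 214 members and below 0 in the others. With no scaling beyond the library total it was above 0 in 101, and with DESeq2-scaled library sizes in 76. Without KD_2 replicate 3 it was below 0 in 93 of the 214, with a median of 0.01. By mean CPM, KD_1 lay above KD_2 in 47.2% of members, against 53.4% of all IDs with a mean of at least 1 CPM. The rule favours members with little spread between the morpholino libraries, and the counts of the fitted difference were not taken over all IDs. Nothing is therefore read from these counts and shares about the members. The fitted log2 fold change to Control had a median of 0.30 for KD_1 and 0.33 for KD_2 over the same members. The rule chose the members by that difference and needs both groups above Control, so nothing is read from setting these sizes side by side. The 2 IDs named above had log2 differences of KD_1 over KD_2 of -0.27 (SE 0.24, edgeR adjusted p = 0.807) for XBXL10_1g18974 and -0.07 (SE 0.08, edgeR adjusted p = 0.847) for XBXL10_1g18876.

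The member with the smallest p in this comparison had 9.95, 9.74, 9.77 and 9.25 CPM in KD_1 replicates 1 to 4 and 11.1, 15.1, 12.9 and 11.8 CPM in KD_2 replicates 1 to 4, against 9.02, 8.49, 9.20 and 8.31 CPM in Control replicates 1 to 4. All KD_2 libraries lay above all KD_1 libraries, and the KD_1 libraries were close to the Control libraries. Its log2 difference of KD_1 over KD_2 was -0.40 (SE 0.10, edgeR adjusted p = 0.649). All KD_2 libraries lay above all KD_1 libraries in 5 members and all KD_1 libraries above all KD_2 libraries in 1. The same counts were not taken over all IDs, so nothing is read from them.

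In the member with the largest difference, a pair of KD_2 libraries stood apart. It had 1.45 to 1.60 CPM in the 4 KD_1 libraries and 1.45, 1.63, 5.28 and 3.40 CPM in KD_2 replicates 1 to 4, against 0.677 to 1.19 CPM in the 4 Control libraries. KD_2 replicates 3 and 4 stood above all others, and KD_2 replicates 1 and 2 were within the range of KD_1 or just above it. Its log2 difference of KD_1 over KD_2 was -0.95 (SE 0.35, edgeR adjusted p = 0.649). The 2 members at that unadjusted p that were higher in KD_1 both had KD_1 replicate 1 as their highest library. It was at 176 CPM in the first of them, where the other KD_1 libraries were at 79.8 to 104 CPM and KD_2 libraries at 69.7 to 97.0 CPM, against 59.3 to 66.9 CPM in Control. In the second it was at 232 CPM, where the other KD_1 libraries were at 107 to 145 CPM and KD_2 libraries at 102 to 138 CPM, against 89.5 to 95.6 CPM in Control.

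**Figure D5:**
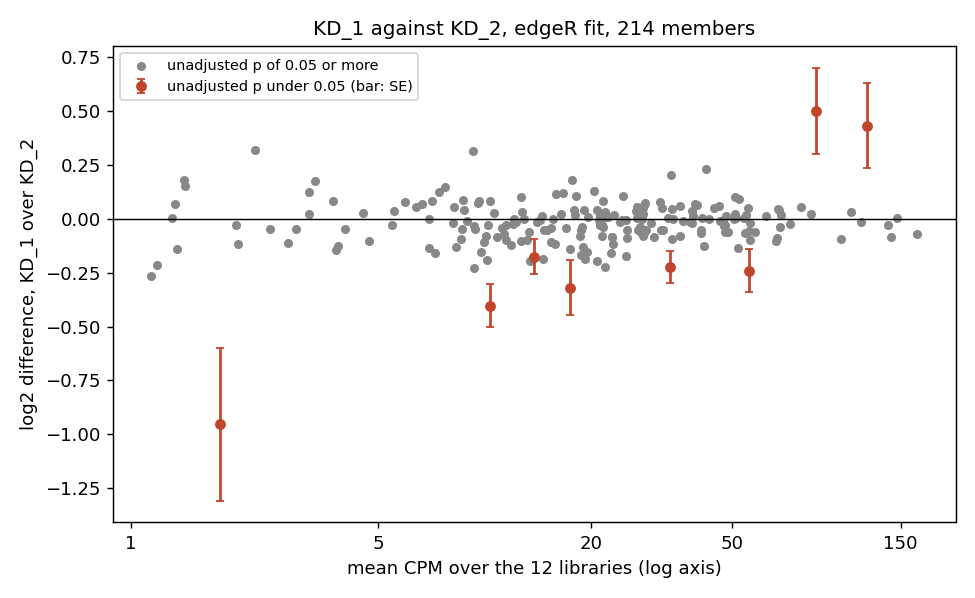
Fitted log2 difference of KD_1 over KD_2 for the 214 members against the mean CPM over the 12 libraries on a log axis. Red points with SE bars are the 8 members at an unadjusted p under 0.05, of which 2 lie above 0 and 6 below, and 0 members passed the adjusted threshold.

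Separation of all libraries and a call in the fitted model were not the same. In the mean of both morpholinos against Control, which is the contrast of the rule, edgeR called 4 IDs higher at an adjusted p of 0.05, 0.0150% of those tested, and all 4 were members. At an unadjusted p under 0.05 there were 211 members higher, against 11.1% of all IDs. DESeq2 called 161 members higher, against 3.00% of all IDs. The number of members called by edgeR was 132 without Control replicate 1, where 1371 of all 27082 IDs tested were called higher. It was 0 without any 1 of Control replicates 2, 3 and 4, KD_1 replicate 1 or KD_2 replicate 3. In each of these fits 0 of all IDs were called higher. It was 13 without KD_2 replicate 1, against 25 of all IDs called higher. It was 1 without KD_1 replicate 2, 1 without KD_2 replicate 2 and 2 without KD_2 replicate 4, and these were the only IDs called higher. Nothing is read from these counts, since the members were chosen by the same values.

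Members varied little between replicates, which the rule favours. The median coefficient of variation was 6.82% in KD_1, 8.77% in KD_2 and 6.45% in Control, against 11.3%, 11.4% and 10.2% in all IDs with a mean of at least 1 CPM. All 214 had IDs of the prevailing form, and none was among the 24 IDs that start with XBmRNA. Consecutive ID numbers joined 8 members into 4 pairs. The place of these IDs in the genome was not used here.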

How the data were processed

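Per the labels' protocols, Trizol RNA of dissected rhombomere 1 went into Illumina's stranded mRNA ligation preparation. The deposited files hold raw counts per gene ID. The submitters' processing notes name featureCounts 2.0.1, and per the file headers the reads had been trimmed. The aligner and strand setting are not named in the sources used here. No header or processing note states the build or annotation, although the genotype label reads Xenla9.2 and most IDs start with XBXL10. As the strand setting is not named, whether counting told reads of overlapping or antisense genes apart is not known. Homeologs, of which this allotetraploid frog has many, may share reads. Of the 44478 IDs, 0 matched the 44456 genes of the RefSeq table (assembly Xenopus_laevis_v10.1), so gene lists, markers, the barhl1 level and sequences are not reported.

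Library totals were 23278184 to 29433422 counts, and 32094 to 32960 IDs had a count. Pairs of libraries within a group differed by a chi-square of 6.22 to 27.6 per degree of freedom, more than sampling noise. Groups and replicate numbers came from the sample titles. CPM is the count over the library total. Members follow the rule given in the opening, and the members and lists were chosen with earlier results of these data known. Where no names are paired, the rule for printed IDs took the member with the widest gap and the member with the highest mean CPM. Other members given library by library were picked after their values were seen and are printed without an ID.

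Differential tests used edgeR 4.0.16 (R 4.3.3) on all 12 libraries with 1 coefficient per group, filterByExpr, TMM and robust quasi-likelihood with 9 residual degrees of freedom. All 214 members were among the 26712 IDs tested. Adjusted p-values are Benjamini-Hochberg over these, two-sided, threshold 0.05. The fit was also run on simulated counts. These had the same spread for all IDs and no library apart from its group, unlike the data here. The simulation therefore does not show how the fit performs on these libraries. Alternatives were DESeq2 1.42.0, limma-voom (limma 3.58.1), other scalings and filters, the replicate number as a block and each library left out.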

Additional observations from a re-analysis of the deposited data

Results flagged for a closer look

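There were 51 sets of 4 libraries (16 members and the sum over members, in 3 groups). The members were those with the widest gap, the highest level, and the highest and lowest ratio. Added to these were the 4 with counting intervals apart and the 8 at an unadjusted edgeR p under 0.05 in KD_1 against KD_2. Not all are given by library above. In 6 of them 1 library lay far from its group, measured only against the range of its own set. This measure takes no account of counting error or of how small that range is. By chance about 1 set in 20 would, or 2.55 of these, if the sets had not been picked by their values. The 16 members were picked by their values, so nothing is read from setting 6 against 2.55. In XBXL10_1g18974, KD_1 replicate 1 was at 1.15 CPM, below the other KD_1 libraries at 1.28 to 1.29 CPM. In the member with the lowest ratio, KD_2 replicate 2 was at 27.6 CPM, below the other KD_2 libraries at 28.3 CPM. In 2 of the 4 members whose counting intervals were apart, KD_2 replicate 2 stood above its group, at 31.4 CPM against 20.1 to 21.0 CPM and at 80.6 CPM against 53.5 to 56.0 CPM. In a member with higher values in KD_2 than in KD_1, KD_1 replicate 4 was at 20.4 CPM against 15.5 to 16.04 CPM in the other KD_1 libraries. The summed level of the members was 6945 CPM in KD_2 replicate 3 against 6317 to 6412 CPM in the other KD_2 libraries.

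Over all 642 such sets of the 214 members, 46 had a library this far from its group, 7.17%, against 5.72% for all 23672 IDs. KD_2 replicate 2 was that library in 12 members, 5.61% against 1.61% of all IDs, and KD_2 replicate 3 in 9, 4.21% against 1.37%. The reverse held for Control replicate 1, with 1.40% against 3.77%, and KD_1 replicate 3, with 0.467% against 2.53%. The rule limits how low a morpholino library and how high a Control library can lie, so nothing is read from these shares.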

How the results depend on the processing

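The number of members was 220 with TMM-scaled and 216 with DESeq2-scaled library sizes, of which 178 in each case were among the 214, 191 at a mean of at least 5 CPM, 231 with no filter on low values and 231 with no limit on the ratio. It was 238 to 1534 with a library left out, 1534 without Control replicate 1 (209 of the 214 among them) and 433 without KD_1 replicate 3, and 2336 without both, a choice made after seeing the data. For KD_1 against KD_2 the count of members called was 0 under all alternatives and with each library left out. Over all IDs, DESeq2 called 3 higher and 8 lower in KD_1, and no other fit called more than 1. The 8 at an unadjusted p under 0.05 were 5 with only these groups in the fit and 4 to 12 with a library left out. For the mean of both against Control, the 4 members called were 8 with no filter on low counts, 161 with DESeq2, 0 with limma-voom and 0 to 132 with a library left out. Over all IDs, 9, 801 and 0 were called higher in these alternatives in turn, and 0 to 1371 with a library left out. The members' median log2 fold change to Control was 0.28 to 0.30 for KD_1 and 0.30 to 0.34 for KD_2 over other scalings, filters and tools. With a library left out it was 0.26 (without Control replicate 3) to 0.32 (without Control replicate 1) for KD_1 and 0.28 (without KD_2 replicate 3) to 0.36 (without Control replicate 1) for KD_2. In the fit with a replicate block, 0 members were called in the mean comparison, 0 in KD_1 against KD_2 and 6 at the unadjusted p. Over all 26712 IDs, that fit called 0 in both comparisons. At the unadjusted p it had 1016 of all IDs higher and 866 lower in KD_1 than in KD_2. No label says whether the numbers pair the libraries. Deviations were correlated over 0.1 in 4 of 12 same-number pairs, and the correlations ran from -0.35 to 0.35. Of the 12 libraries, 3 were closest to a library of their own number. These counts cannot exclude a pairing. The cause of the correlations was not tested. The counting intervals of the bounding libraries were apart in 0 of the 23 members under 5 CPM and 1 of 79 at 5 to 20 CPM. They were apart in 1 of 78 at 20 to 50 CPM and 2 of 34 above, so at each level most overlapped. Overlap of 2 such intervals does not show that a gap is within counting error. The same count was not taken over all IDs.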
